A study of Homo sapiens with 4 samples.

Results

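The genes described here make, carry and sense retinoic acid: ALDH1A2, RDH11, DHRS3, CRABP2, RARA, RARG, RXRA and RXRB. The set was chosen by a measured value, the lower ALDH1A2 count in cells with a hairpin against ELOVL5, and was then filled with named genes of the same pathway. It holds 8 of the 64252 gene identifiers in the count table, and all 8 were among the 17461 genes with enough counts to be tested. Because this contrast chose the set, the values of its genes are given as a description, with no p-value.

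RNA was sequenced from J.gamma1 cells, a derivative of the Jurkat T-cell acute lymphoblastic leukemia line that lacks phospholipase C gamma 1. The control cells carried a non-targeting short hairpin RNA (shNC, 2 libraries), the others a hairpin against ELOVL5, a fatty acid elongase gene (shELOVL5, 2 libraries). Both groups therefore share the cell line, its missing phospholipase and the expression of a hairpin. The labels give neither the sequence or number of hairpins, nor how they were delivered, nor the time until harvest. The column names carry a mark, D4, that the labels do not explain. They also do not say that the 2 libraries of a group came from separate cultures. Errors and p-values thus cover the spread of these libraries alone, and that spread may be technical.

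Retinoic acid is made from vitamin A in 2 oxidations. Retinol dehydrogenases turn retinol into retinal, and enzymes such as DHRS3 and RDH11 can run this step backwards. Retinal dehydrogenases of the ALDH1A class then make retinoic acid, which CRABP2 carries to the nucleus and the CYP26 enzymes destroy. There it binds heterodimers of a retinoic acid receptor (RAR) and a retinoid X receptor (RXR), which sit on paired copies of a short DNA motif. ALDH1A2 is a gene of the early embryo that many T-cell leukemias switch on, and in such cells TAL1, LMO proteins and GATA3 are known to drive it from a start inside the gene.

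The 3 stretches of reference DNA below hold motifs of GATA factors or of the retinoic acid receptors, and all are from RefSeq on GRCh38.p14. The first is intron sequence of ALDH1A2 just ahead of the internal start (chr15:58014102-58014176, minus strand), clear of every exon annotated in GENCODE release 29. Capitals mark AGATAA, a motif that GATA factors bind. It lies at -140 to -135 relative to the start at position 58014023 on chromosome 15. The other 2 are the retinoic acid response elements of RARB (chr3:25428204-25428232, plus strand) and CYP26A1 (chr10:93073797-93073825, minus strand), genes through which retinoic acid feeds back on itself. Capitals mark the pair of receptor motifs, which a 5-base spacer separates.
ALDH1A2 intron: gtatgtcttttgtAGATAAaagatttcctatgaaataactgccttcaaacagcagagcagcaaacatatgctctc
RARB element: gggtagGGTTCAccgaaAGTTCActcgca
CYP26A1 element: acaattAGTTCAcccaaAGTTCAtcttta

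AGATAA was found on either strand in 10.3% of 35116 RefSeq promoter windows, each 300 bases long, and in 1 of the 15 windows of the 8 genes. That window belongs to the internal start of ALDH1A2, while the window of its other start, at position 58065711, held none. A repeat was any pair of AGGTCA or GGTTCA or AGTTCA or GGGTCA or TGTTCA in the same orientation with 5 bases between them, on either strand. Such repeats were found in 41 windows (0.117%). Among the 177 windows of the genes listed here, only those of RARB and CYP26A1 held one, and none of the 15 windows of the 8 genes did. A match is a run of letters and not evidence of binding, and counts per gene do not tell which start of ALDH1A2 was used.

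The 4 libraries held 16254002 to 17338719 counts, and 3 counts came to 0.172 to 0.187 CPM (the count relative to the library's scaled total). CPM values were scaled between libraries by the trimmed mean of M values (TMM). ELOVL5, the targeted gene, had 342 and 353 CPM in shNC and 71.8 and 70.0 CPM in shELOVL5. All 12 T cell markers were detected, with a summed level of 2123 to 2241 CPM. At an edgeR adjusted p under 0.05, 6 of them were called lower and 2 higher, against 11.2% and 9.22% of all tested genes. The log2 fold changes of these 8 ran from -0.41 (TRAC) to 0.32 (CD3E). Markers of myeloid (0.706 to 1.68 CPM in sum) and erythroid cells (0.515 to 1.18 CPM) were close to 0, with LYZ, CSF1R, FCGR3A, HBB and ALAS2 at 0 counts throughout. The B cell list reached 37.8 to 43.8 CPM in shNC and 24.8 to 27.0 CPM in shELOVL5. Most of that was CD79A. Epithelial and fibroblast markers summed to 5.42 to 6.89 CPM in shNC and 9.50 to 9.67 CPM in shELOVL5, with 5 of 8 genes at 0 counts. The part of these marker levels in the results below was not tested.

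ALDH1A2 (ENSG00000128918) encodes the retinal dehydrogenase that makes retinoic acid. On GRCh38 its annotated transcripts run from 57953424 to 58497866 on the minus strand of chromosome 15. Its counts were 5193 and 4806 under shNC and 1333 and 1193 under shELOVL5. On the CPM scale these were 306 and 299 against 76.3 and 72.2. Each shELOVL5 library was far under each shNC library, and the libraries of a group lay close together. The group means were 303 ± 4.40 and 74.2 ± 2.88 CPM (SD, n = 2), a 4.07-fold lower level (log2 fold change -2.03, SE 0.0510). In bulk RNA, fewer cells with the transcript and less transcript per cell cannot be told apart.

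**Figure D1:**
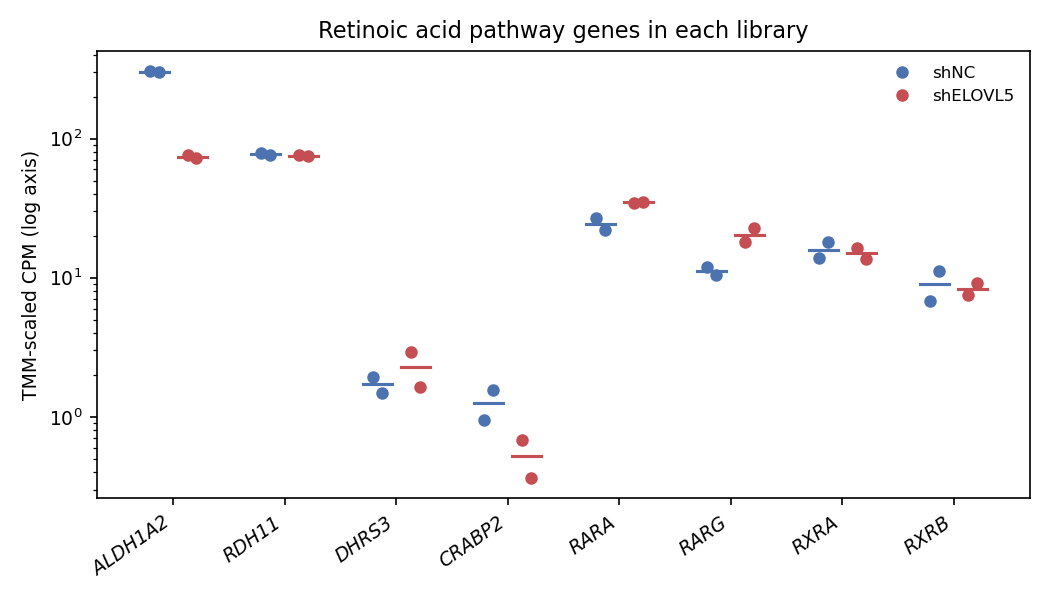
TMM-scaled CPM on a log axis for the 8 genes, with 1 point per library and a bar at each group mean (2 shNC libraries in blue, 2 shELOVL5 libraries in red). ALDH1A2 drops from 303 to 74.2 CPM, about the level of RDH11, RARA and RARG sit higher in shELOVL5, and the RXR genes overlap.

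In the shNC control cells ALDH1A2 was an abundant transcript. Only 2.79% of tested genes reached its shNC level in CPM, and 8.21% did so per length. Per length means RPKM, the CPM divided by the summed length of a gene's annotated exons in kilobases. Of all tested genes 59 had a log2 fold change at or below that of ALDH1A2, and so did 10 of the 12247 that averaged 5 CPM or more, ALDH1A2 included in both. The median over all tested genes was 0.0062.

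The sister enzymes of ALDH1A2 were close to the detection limit in both groups. ALDH1A1, the retinal dehydrogenase of many adult tissues, had 10 and 4 counts in shNC and 8 and 16 in shELOVL5. ALDH1A3 had 3 counts in shNC replicate 1 and none elsewhere. Both were too low to be tested, and a count of 0 allows up to 3 counts in a library. ALDH1A2 made up 99.3% and 99.7% of the summed RPKM of these 3 genes in shNC, and 98.2% and 96.1% in shELOVL5.

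The wider aldehyde dehydrogenase family shows how far ALDH1A2 moved. In shNC it had the highest RPKM of 19 family genes, 35.1 ± 0.510, ahead of ALDH18A1 (30.9 RPKM), an enzyme of proline synthesis, and ALDH9A1 (28.4 RPKM). In shELOVL5 it ranked 6, at 8.61 ± 0.334 RPKM. Its share of the family's summed RPKM was 25.1% and 24.1% in shNC and 7.26% and 7.03% in shELOVL5. With the length of its longest coding transcript, ALDH1A2 had 73.8 RPKM in shNC and 18.1 RPKM in shELOVL5. That length was not applied to the rest of the family, so these ranks and shares hold for the summed exon length only. Of the other 18 genes 9 were tested. One of them, ALDH6A1, a mitochondrial enzyme of valine breakdown, fell from a mean of 44.4 ± 3.63 to one of 30.4 ± 1.21 CPM (log2 fold change -0.54 with SE 0.103, edgeR adjusted p = 0.00419). The 8 others did not pass, and ALDH16A1, with 38.2 and 46.0 CPM as group means, passed as higher when libraries were scaled by total counts alone (family count then 1 higher and 2 lower). ALDH1B1, ALDH3A1 and ALDH7A1 were listed at 0 counts in every library. As 20.4% of all tested genes were called, 1 called gene among the 9 besides ALDH1A2 is no result about the family.

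**Figure D2:**
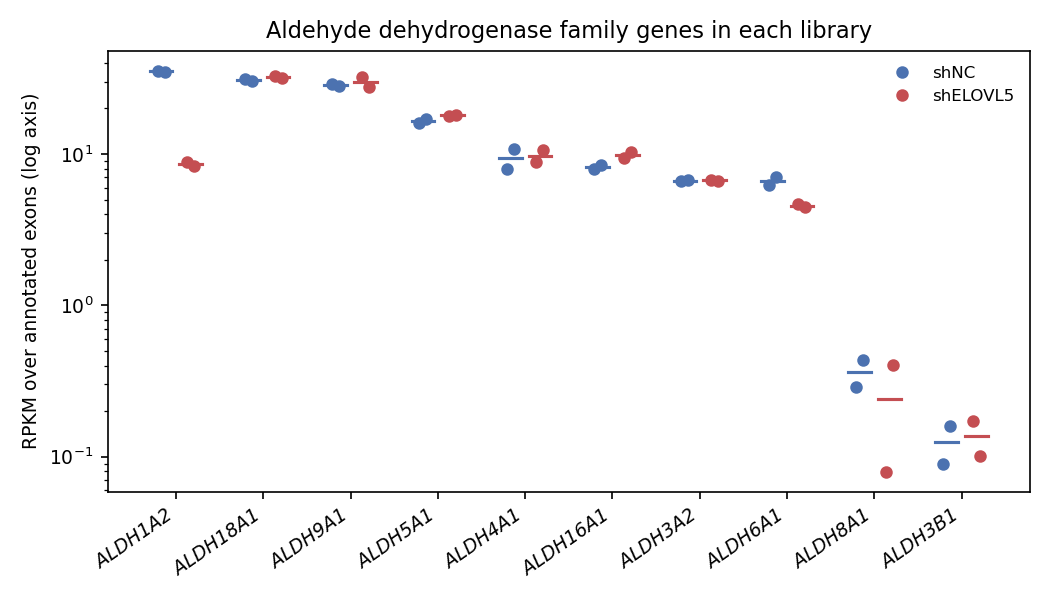
RPKM on a log axis for the 10 tested aldehyde dehydrogenase genes, ordered by their shNC mean, with 1 point per library and a bar at each group mean. ALDH1A2 is highest in shNC at 35.1 RPKM and falls to 8.61 RPKM in shELOVL5, below ALDH18A1, ALDH9A1, ALDH5A1, ALDH16A1 and ALDH4A1.

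Of the 2 described enzymes that turn retinal back into retinol, RDH11 was abundant and DHRS3 scarce. RDH11 (ENSG00000072042, chromosome 14, 67676801 to 67695814), a retinal reductase, had 1330 and 1217 counts in shNC and 1325 and 1237 in shELOVL5. Its scaled levels of 78.3 and 75.8 CPM against 75.8 and 74.9 CPM were nearly the same, with a log2 fold change of -0.033 (SE 0.0678). The readthrough gene that shares 346 exonic bases with RDH11 had at most 3 counts in a library. DHRS3 (ENSG00000162496, chromosome 1, 12567910 to 12617731), a retinal reductase that retinoic acid itself induces, had low counts but enough to be tested. It had 33 and 24 counts in shNC and 51 and 27 in shELOVL5, and the groups overlapped. Its log2 fold change of 0.40 (SE 0.423) changed sign without shELOVL5 replicate 1 (-0.082).

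CRABP2 (ENSG00000143320, chromosome 1, 156699606 to 156705816), the carrier that hands retinoic acid to its receptors, was scarcer still. It had 16 and 25 counts in shNC against 12 and 6 in shELOVL5. The groups did not overlap, at 0.942 and 1.56 CPM against 0.687 and 0.363 CPM, but the log2 fold change of -1.23 had an SE of 0.624. CRABP2 passed the filter on low counts through its shNC libraries. Leaving out 1 library moved the log2 fold change between -1.77 and -0.84. The other carrier gene, FABP5, was abundant at 64.5 ± 0.369 and 66.8 ± 2.27 CPM, and CRABP1 had 0 counts.

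The receptor genes RARA and RARG stood higher in shELOVL5, and the third gene of the RAR class, RARB, was too low to be tested. RARA (ENSG00000131759, chromosome 17, 40309192 to 40357643) encodes retinoic acid receptor alpha, the receptor of blood cells that is fused to PML in promyelocytic leukemia. Its counts were 458 and 353 in shNC and 601 and 581 in shELOVL5, or 27.0 and 22.0 against 34.4 and 35.2 CPM. The shNC libraries differed more from each other than the shELOVL5 libraries did, and the groups did not overlap. The level was 1.42-fold higher (log2 fold change 0.51, SE 0.122). Antisense genes share 556 and 291 exonic bases with RARA, and the counting is not known to use strand.

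RARG (ENSG00000172819, chromosome 12, 53210567 to 53232980), which encodes receptor gamma, showed the larger difference of the pair. It had 202 and 168 counts in shNC and 315 and 375 in shELOVL5, or 11.9 and 10.5 against 18.0 and 22.7 CPM. Here the shELOVL5 libraries were the more spread, again with no overlap, and the level was 1.82-fold higher (log2 fold change 0.86, SE 0.175). The third RAR gene, RARB, whose response element is printed above, had 9 counts in shNC replicate 1, 1 in shELOVL5 replicate 2 and 0 in the other 2 libraries. RARA and RARG together came to 8.02 and 6.69 RPKM in shNC and 10.8 and 11.9 RPKM in shELOVL5.

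The RXR genes, whose products pair with the RAR proteins, had overlapping levels in the groups. RXRA (ENSG00000186350, chromosome 9, 134317098 to 134440585) had 237 and 288 counts in shNC and 287 and 226 in shELOVL5. RXRB (ENSG00000204231, chromosome 6, 33193588 to 33200688) had 116 and 180 against 131 and 152. The groups overlapped for both, with log2 fold changes of -0.082 (SE 0.181) and -0.11 (SE 0.266) whose sign depended on which library was left out. RXRB lies in the major histocompatibility complex and shares 244 exonic bases with SLC39A7, so that reads may have gone to that gene or to alternate haplotype copies. RXRG had 0 counts in every library.

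Of the 8 genes 3 were past an edgeR adjusted p of 0.05, against 20.4% of all tested genes. RARA and RARG were called higher (9.22% of all tested genes) and ALDH1A2 lower (11.2%). With libraries scaled by total counts alone, 1933 genes were higher and 1674 lower, against 1610 and 1952 with TMM. Nothing is read from the counts of the set, because this contrast chose it. All 12 alternative settings used libraries that chose the set, so they describe its stability and add no support. In them the log2 fold change lay between -2.08 and -1.99 for ALDH1A2, 0.69 and 1.01 for RARG, and 0.36 and 0.66 for RARA. RARA was not called without shNC replicate 2 (log2 fold change 0.36), without shELOVL5 replicate 1 (0.51) or 2 (0.49), or with no filter on low counts (0.50). RARG was not called without shELOVL5 replicate 2 (0.69).

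**Figure D3:**
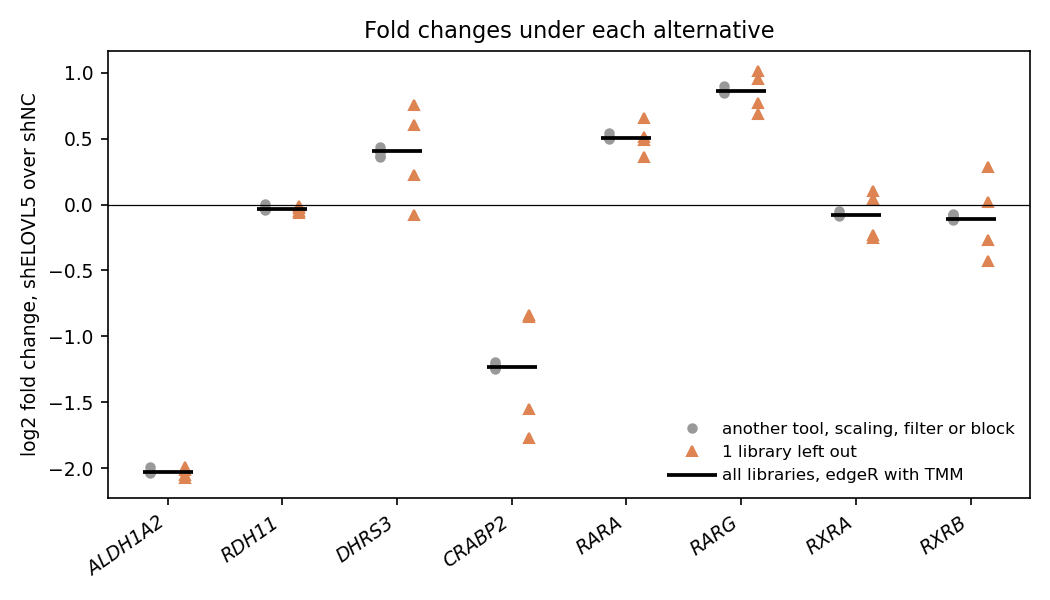
Log2 fold change of each gene (shELOVL5 over shNC) with all 4 libraries (black bar), under other tools, scalings, filters or a replicate block (grey points), and with 1 library left out (orange triangles). ALDH1A2 stays between -2.08 and -1.99, RARA and RARG stay above 0, and RXRA, RXRB and DHRS3 fall on both sides of 0 depending on the library left out.

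Compared per length, the order of the 8 genes differed between the groups at the top. In shNC it ran ALDH1A2 (35.1 RPKM), RDH11 (14.0), RARA (5.17), RXRB (2.30), RARG (2.18), RXRA (1.44), CRABP2 (1.14) and DHRS3 (0.566). RXRB and RARG, and likewise RXRA and CRABP2, differed by less than the spread of their libraries. In shELOVL5 RDH11 came first (13.7 RPKM), followed by ALDH1A2 (8.61), RARA (7.35), RARG (3.97), RXRB (2.13), RXRA (1.36), DHRS3 (0.750) and CRABP2 (0.477), and only the last 2 were within their spread. With the longest coding transcript as the length, a choice made once the data had been seen, the top ranks were the same and RXRA moved up, to 8.64 RPKM in shNC against 8.05 for RARA.

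The rest of the retinoid pathway was covered by 48 further genes of uptake, storage, oxidation, binding, degradation and reception. The described genes, ALDH1A2, RARA and RARG among them, were left out of this list. As those were chosen with results known, a low number of calls in the list was partly set in advance. Only 17 had enough counts, and 21 had 0 counts in all libraries. None of the 17 passed by edgeR, DESeq2 or limma-voom, and none had an unadjusted p under 0.05 by any of these tools, against 32.7%, 24.5% and 32.1% of all tested genes. Their median log2 fold change was -0.0059, with values from -0.99 (RDH5, a retinol dehydrogenase) to 1.30 (RBP5, a retinol-binding protein gene), both under 2 CPM. Among the 17 the SE ran from 0.0744 (FABP5) to 0.733 (ALDH8A1), so changes in the scarcer genes could go uncalled. The smallest edgeR adjusted p was 0.154, for SCARB1, a lipoprotein receptor that takes up carotenoids, with 38.4 ± 0.896 and 44.3 ± 1.95 CPM.

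RDH10, the main retinol dehydrogenase of embryos, had 26.3 ± 1.85 and 26.6 ± 1.30 CPM. DHRS4, a retinal reductase, had 36.2 ± 1.16 and 39.4 ± 3.02 CPM. STRA6, the retinol importer, had 32, 55, 62 and 63 counts across the shNC and then the shELOVL5 libraries. LRAT, which stores retinol as esters, had 0 counts. Among the degrading enzymes CYP26B1 had 19.1 ± 0.173 and 19.8 ± 0.506 CPM, and CYP26C1 at most 4 counts. CYP26A1, whose response element is printed above, had 36 and 16 counts in shNC and 32 and 22 in shELOVL5, with overlapping groups and a log2 fold change of 0.019 (SE 0.491).

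**Figure D4:**
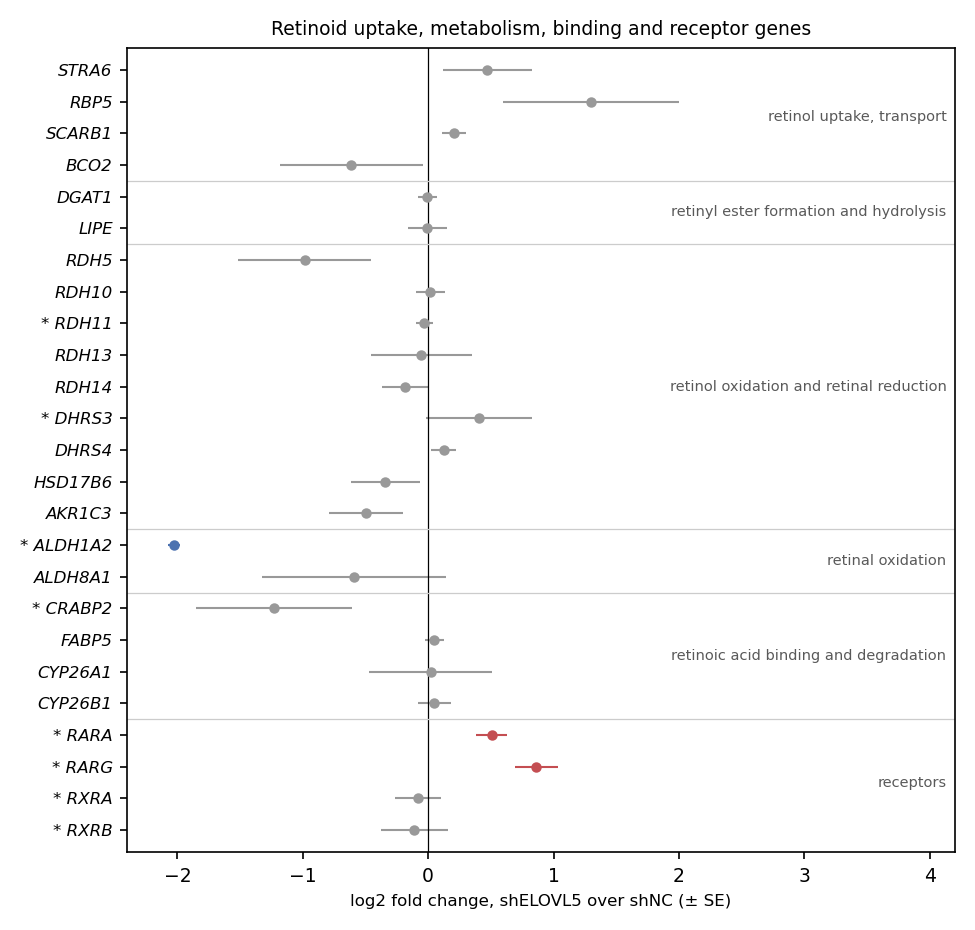
Log2 fold change (shELOVL5 over shNC, ± SE, 2 libraries per group) of the 25 tested retinoid genes by role, with the 8 described genes marked by an asterisk. Blue marks genes called lower, red genes called higher and grey the others, and the 3 coloured genes are ALDH1A2, RARA and RARG.

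Receptors act through coregulators, and all 17 listed coregulator genes were tested. The corepressor subunit gene TBL1X fell from 37.2 and 33.6 CPM to 12.6 and 11.4 CPM (log2 fold change -1.56, SE 0.130, edgeR adjusted p = 2.05e-05). Its paralog TBL1XR1 did not pass, at 249 and 233 CPM as group means. In all 2 genes of the list rose, 1 fell and 14 did not pass. The 3 called genes are a share near the 20.4% called among all tested genes, so their count is no result about the list. The coactivator gene NCOA2 rose from 43.1 and 44.4 CPM to 55.3 and 53.2 CPM (log2 fold change 0.31, edgeR adjusted p = 0.0273). It was not called in 6 of 12 alternatives (adjusted p from 0.0169 to 0.175), among them leaving out any 1 of the 4 libraries. The median of the list was 0.12 on the log2 scale, against 0.0062 for all tested genes.

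RXR also pairs with other nuclear receptors, of which 9 of 13 were tested. NR1H2, which encodes the oxysterol receptor LXR beta, rose from 57.9 and 63.8 CPM to 91.6 and 99.5 CPM (log2 fold change 0.65, SE 0.0776, edgeR adjusted p = 0.000238). The other 8 did not pass. They include the fatty acid receptor genes PPARA (-0.13) and PPARD (-0.068), the vitamin D receptor gene VDR (-0.30) and the thyroid hormone receptor gene THRA (0.25). The median of the 9 was -0.016. As 20.4% of all tested genes were called, 1 called gene of 9 is no result about the list.

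Of 30 genes known to be induced by retinoic acid in other cells 18 were tested, and 15 did not pass. The 3 called genes, 2 lower and 1 higher, are a share near the 20.4% of all tested genes that were called, and the count is therefore no result about the list. Its median log2 fold change was -0.096. DHRS3 and CRABP2 are in this list as well. CD38, a surface enzyme and a classical target of RARA in blood cells, fell from 43.8 and 39.6 CPM to 18.7 and 19.8 CPM (log2 fold change -1.11, SE 0.111, edgeR adjusted p = 7.24e-05). ITGA4, the integrin alpha 4 gene of gut-homing T cells, fell from 265 and 263 CPM to 182 and 190 CPM (log2 fold change -0.51, adjusted p = 3.21e-05). ITGB7, its partner chain, had log2 fold change 0.42 and did not pass, and the gut-homing receptor gene CCR9 had at most 18 counts. BHLHE40, a transcriptional repressor gene, rose from 13.3 ± 0.879 to 23.4 ± 0.613 CPM (log2 fold change 0.81, adjusted p = 0.00264).

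**Figure D5:**
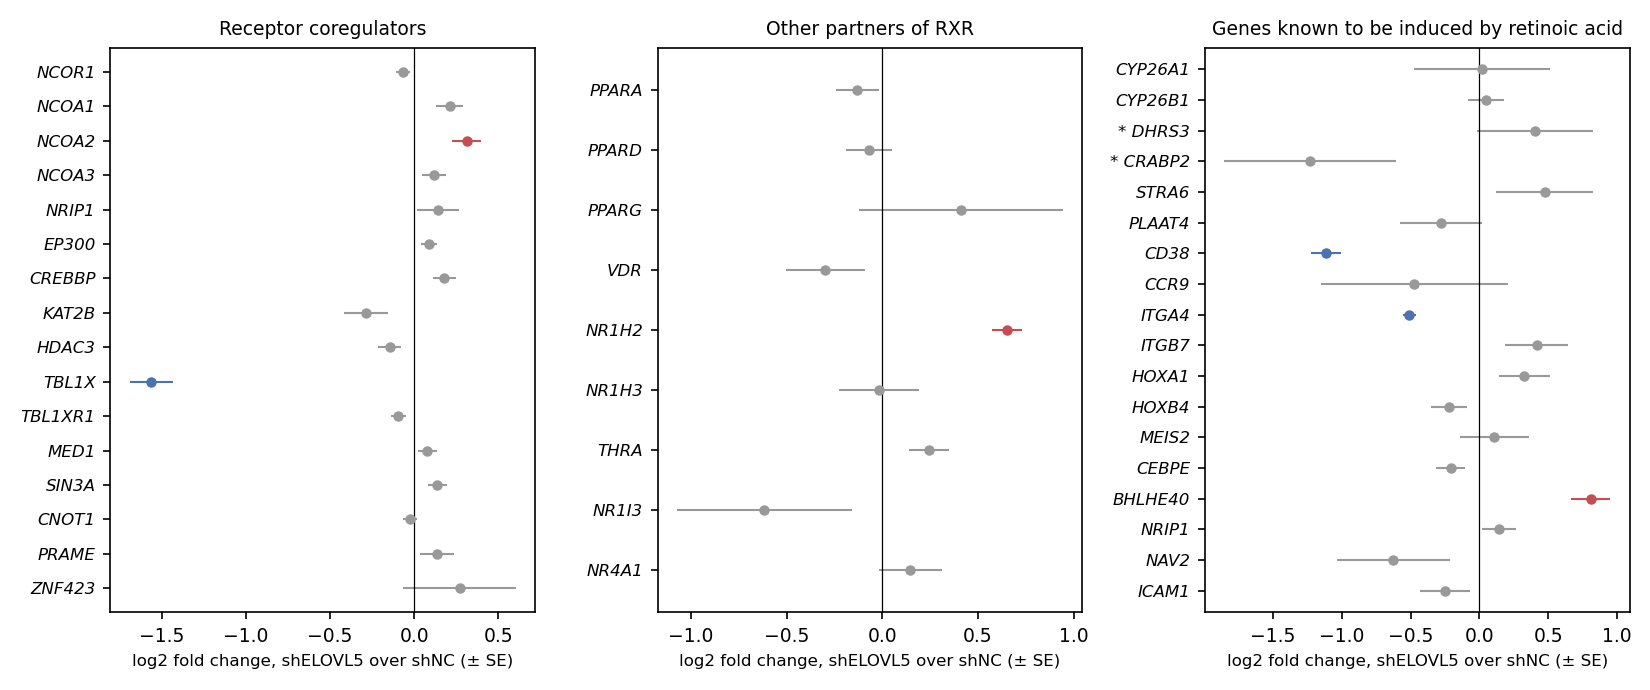
Log2 fold change (shELOVL5 over shNC, ± SE, 2 libraries per group) of tested coregulators (1 is not shown), other RXR partners and genes known to be induced by retinoic acid, in blue where called lower, red where called higher and grey otherwise (asterisks mark DHRS3 and CRABP2). TBL1X and CD38 are the called genes farthest below 0, NR1H2 and BHLHE40 those farthest above.

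Some of the factors known to drive ALDH1A2 in T-cell leukemia, TAL1 and GATA3 among them, were lower in the same libraries. Of 11 genes of the TAL1 complex 10 were tested, 5 fell, 5 did not pass and none rose (median -0.16), where 11.2% of all tested genes were called lower and 9.22% higher. TAL1 fell from 296 and 308 CPM to 196 and 182 CPM (log2 fold change -0.68, edgeR adjusted p = 9.33e-06). GATA3 fell from 167 and 167 CPM to 131 and 113 CPM (log2 fold change -0.45, edgeR adjusted p = 0.00147). The motif marked in the ALDH1A2 intron above is shared by GATA factors, and binding to it was not tested. MYB fell by 0.39 on the log2 scale. TCF12 (-0.20) and RUNX1 (-0.13) also passed, but TCF12 not without shELOVL5 replicate 2, and RUNX1 not in 4 alternatives, leaving out shELOVL5 replicate 1 or 2 among them. LMO1, with 65, 84, 86 and 55 counts across the libraries, did not pass, and LMO2, with at most 9, was not tested. ALDH1A2 differed by more than any of the 10 tested genes of the list, and whether one bears on the other was not tested.

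Of the genes that flank ALDH1A2 on chromosome 15, POLR2M and ADAM10 were expressed and were called lower, as were 11.2% of all tested genes. Both fell by less than ALDH1A2 (log2 fold change -2.03). The distances given here run from the ends of the annotated span of ALDH1A2. Its RefSeq starts, at 58014023 and 58065711, lie inside that span and so farther from ADAM10, which begins at 58588807. POLR2M, 170662 bases away, fell from 76.2 ± 4.17 to 53.4 ± 7.65 CPM (log2 fold change -0.51, edgeR adjusted p = 0.00577). ADAM10, a membrane protease gene 90941 bases away on the other side, fell from 221 ± 0.949 to 145 ± 1.70 CPM (log2 fold change -0.61, adjusted p = 1.15e-05). AQP9 and LIPC overlap the long annotated span of ALDH1A2 on the opposite strand. AQP9 had 6 counts in shELOVL5 replicate 1 and none elsewhere, and LIPC had 28, 4, 4 and 8 counts. The antisense gene ALDH1A2-AS1 was listed at 0 counts.

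Over the 4 libraries, TRIB3 had the pattern most like that of ALDH1A2 among 9629 genes that averaged 5 CPM or more and had a symbol without a hyphen or a pseudogene ending. Likeness was the Euclidean distance between log2(CPM + 0.5) values centred on each gene's mean. TRIB3, a pseudokinase gene of the stress response, was at a distance of 0.232, with 125 and 35.4 CPM as group means. ELOVL5 itself (0.272), EGFL7 (0.273), CYB5R4 (0.280), SLC7A11 (0.338) and CCR2 (0.364) followed, then KCNQ3, MARCKS, SNX32 and SGTB (0.395 to 0.485). With 2 groups of 2 libraries this measure mostly ranks genes by the size of their fall.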

How the data were processed

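The deposited table holds raw whole-number read counts per gene, 1 column per library, which the authors did not normalize. Per the submitters' processing notes, HISAT2 2.2.0, StringTie (version not given) and build hg38 were used. RNA was extracted with TRIzol and prepared with a TruSeq RNA kit, per the labels' protocols. The sources used here name no annotation, counting step or strand setting. Titles gave groups and replicate numbers. Symbols came from a gene name table matching 56105 of 64252 identifiers, and positions and exon lengths from GENCODE 29 on GRCh38. The 7661 identifiers outside its primary assembly held 2.10% of counts.

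Genes passing filterByExpr (minimum count 10) were fitted with edgeR 4.0.16 in R 4.3.3 by TMM scaling and the two-sided quasi-likelihood test, and the model held only the group. P-values were adjusted by Benjamini-Hochberg over all tested genes (threshold 0.05), and the SE is the log2 fold change over the root of the F statistic. The fit was also run on simulated counts with the same dispersion for every gene. That setting does not copy the spread of these libraries, so the run does not measure error in them. Alternatives were RLE and total-count scaling, 2 other filters, DESeq2 1.42.0, limma-voom (limma 3.58.1), robust=FALSE, a replicate block and leaving out each library. Replicates differed beyond sampling noise (chi-square per degree of freedom 5.93 in shNC, 5.51 in shELOVL5).

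The 8 genes and all lists were chosen with earlier results of these data known. The text names those 8, list genes past the threshold and main pathway genes, the 10 genes most like ALDH1A2 and up to 3 coding neighbours on each side. Further list genes, and examples of genes that did not pass, were named after their values were seen. Results for a few list genes are not reported here.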

Additional observations from a re-analysis of the deposited data

How the results depend on the processing

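The count of changed genes was 3562 with all libraries and 2243 with no low-count filter, where 31428 genes were tested. It lay between 1872 and 2963 when 1 library was left out, lowest without shELOVL5 replicate 1. Of the 8 described genes 3 were called, and 1 to 3 when 1 library was left out, with only ALDH1A2 called without shELOVL5 replicate 2. The counts for the other pathway genes (0), the aldehyde dehydrogenase family (2, or 3 by total counts alone) and the genes known to be induced by retinoic acid (3) stayed within 1.5 times of those values under every alternative run.

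With a replicate block 3453 genes were called, and the calls of the 8 genes were the same. The labels do not say that equal replicate numbers mark a shared culture or day. Across genes of at least 5 CPM the deviations of same-numbered libraries had a correlation of -0.0061. That value cannot tell whether they shared a culture, day or batch. Total counts were higher in replicate 1 of both groups (17246603 in shNC, 17338719 in shELOVL5) than in replicate 2 (16254002 and 16311139).

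Depth limits CRABP2, DHRS3, CYP26A1 and STRA6, which had at most 63 counts in any library. The log2 fold change of CRABP2 lay between -1.77 and -0.84 and that of DHRS3 between -0.082 and 0.76 when 1 library was left out. The limit of 3 counts set on a count of 0 covers counting error only.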
